A study of Homo sapiens with 6 samples.

Results

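The short arm of human chromosome 2 (2p) carries MYCN, the gene of the N-Myc transcription factor. Its promoters were taken from a pair of deposited tables, of N-Myc-binding and of N-Myc-non-binding promoters, by a listed transcription start site (TSS) on chromosome 2 below 92 Mb (hg19). This gave 257 of 9585 promoters, 89 of 3254 N-Myc-binding and 168 of 6331 non-binding ones, each with its own gene name. Of these, 19 lie between 10 and 20 Mb, around MYCN. Each promoter was joined by gene name to a deposited pair of lists, of genes with an H3K4me3 peak within 1 kb of a TSS in each library.

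The libraries came from chromatin immunoprecipitation and sequencing of BE(2)-C, an established human neuroblastoma cell line in which MYCN is amplified. The cells had received a control siRNA or WDR5 siRNA-1 for 24 hours, and each siRNA has 1 H3K4me3 library. IgG and input libraries of both siRNAs complete the 6 libraries and were not analysed here. The lists hold names without peak heights or read numbers. The depth is therefore unknown, and every value below describes this pair of libraries without replicate error. A gene counted as having a peak in both libraries, with control siRNA alone (control-only), with WDR5 siRNA alone, or in neither list.

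N-Myc, with its partner MAX, binds E-box DNA, whose canonical form is CACGTG, and MYCN amplification marks an aggressive class of neuroblastoma. H3K4me3, histone H3 trimethylated at lysine 4, is found at active promoters, above all those rich in CG dinucleotides. It is written by methyltransferase complexes that share the WDR5 subunit, and a gain of distal 2p is a frequent chromosome change of neuroblastoma.

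The promoters of MYCN and of the nearest listed neighbours on either side in each table are shown first, because their calls differ while they lie on 1 stretch of the arm. The sequences are RefSeq promoter windows on GRCh38.p14, from 250 bases before to 50 bases after the annotated start, written 5′ to 3′ on the gene's strand with every CG dinucleotide in capitals. The tables' positions are on hg19 and were not moved between builds. MYCN (chr2:15940300-15940599, plus strand) and SMC6 (chr2:17753761-17754060, minus strand) are N-Myc-binding promoters with a peak in both libraries, and DDX1 (chr2:15591618-15591917, plus strand) is a non-binding one with a peak in both. VSNL1 (chr2:17540446-17540745, plus strand) is a non-binding control-only promoter, and NTSR2 (chr2:11670146-11670445, minus strand) is a binding promoter in neither list.
MYCN: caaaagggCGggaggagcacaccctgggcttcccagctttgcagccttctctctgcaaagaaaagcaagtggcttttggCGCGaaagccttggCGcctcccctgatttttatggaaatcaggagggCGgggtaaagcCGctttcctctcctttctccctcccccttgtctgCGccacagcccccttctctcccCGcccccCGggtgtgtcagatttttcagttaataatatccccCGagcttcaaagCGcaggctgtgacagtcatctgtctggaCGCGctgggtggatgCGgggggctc
SMC6: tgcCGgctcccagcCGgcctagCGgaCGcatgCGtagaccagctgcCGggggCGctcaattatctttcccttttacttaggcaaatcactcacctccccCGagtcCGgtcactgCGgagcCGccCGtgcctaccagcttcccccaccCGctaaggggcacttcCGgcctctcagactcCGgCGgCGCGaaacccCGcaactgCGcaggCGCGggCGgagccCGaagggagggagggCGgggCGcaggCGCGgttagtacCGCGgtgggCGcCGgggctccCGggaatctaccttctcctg
DDX1: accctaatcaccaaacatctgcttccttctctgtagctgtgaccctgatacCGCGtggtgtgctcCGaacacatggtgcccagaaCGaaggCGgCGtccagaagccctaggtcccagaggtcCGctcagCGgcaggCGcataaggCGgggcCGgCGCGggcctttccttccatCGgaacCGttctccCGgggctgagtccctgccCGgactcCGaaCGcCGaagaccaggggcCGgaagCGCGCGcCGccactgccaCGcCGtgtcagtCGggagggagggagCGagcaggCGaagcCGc
VSNL1: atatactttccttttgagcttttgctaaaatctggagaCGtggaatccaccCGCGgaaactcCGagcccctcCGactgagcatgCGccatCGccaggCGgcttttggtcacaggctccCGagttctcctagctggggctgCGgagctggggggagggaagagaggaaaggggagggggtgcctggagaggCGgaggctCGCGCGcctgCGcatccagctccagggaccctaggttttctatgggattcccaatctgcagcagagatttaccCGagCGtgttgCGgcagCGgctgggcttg
NTSR2: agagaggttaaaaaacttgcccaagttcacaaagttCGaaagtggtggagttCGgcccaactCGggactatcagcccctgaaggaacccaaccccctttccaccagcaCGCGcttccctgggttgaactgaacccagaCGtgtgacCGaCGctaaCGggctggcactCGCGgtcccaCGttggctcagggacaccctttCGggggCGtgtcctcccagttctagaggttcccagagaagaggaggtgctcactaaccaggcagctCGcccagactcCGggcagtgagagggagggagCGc
The windows held 14 CG dinucleotides at MYCN, 33 at SMC6, 31 at DDX1, 19 at VSNL1 and 17 at NTSR2. By the difference between builds at MYCN and NTSR2, the DDX1 window starts just after the listed TSS. Its count then describes sequence downstream of that TSS. None of these 5 windows holds CACGTG.

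Among the 18 promoters between 10 and 20 Mb for which a RefSeq window was found, CACGTG occurs at KLF11 alone. KLF11, a Krüppel-like transcription factor gene, is an N-Myc-binding promoter with a peak in both libraries. Its window (chr2:10043579-10043878, plus strand) is printed with that motif in capitals. By the difference between builds at MYCN and NTSR2, this window starts after the listed TSS of KLF11. The motif would then lie downstream of that TSS.
KLF11: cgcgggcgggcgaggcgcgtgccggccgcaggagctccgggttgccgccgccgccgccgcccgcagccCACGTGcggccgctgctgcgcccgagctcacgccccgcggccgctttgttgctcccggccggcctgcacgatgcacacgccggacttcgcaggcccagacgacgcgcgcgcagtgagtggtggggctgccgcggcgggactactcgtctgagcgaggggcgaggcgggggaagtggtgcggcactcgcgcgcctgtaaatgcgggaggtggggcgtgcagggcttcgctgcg

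Around MYCN, 11 of the 19 promoters had a peak in both libraries, 4 were control-only and 4 were in neither list. Over both tables, 11.6% of the promoters with a control peak were control-only. The 8 N-Myc-binding promoters of this stretch were KLF11, RRM2, ODC1, PDIA6, NTSR2, MYCN, SMC6 and KCNS3. MYCN itself (TSS at 16080683) had a peak in both libraries. The same call was made for RRM2 (10262695), the small subunit of ribonucleotide reductase, and for ODC1 (10588453), the first enzyme of polyamine synthesis. It was also made for PDIA6 (10952960), a disulfide isomerase of the endoplasmic reticulum, and for SMC6 (17935096), a subunit of a chromosome maintenance complex. KLF11 lies at 10183682.

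KCNS3 (18059945), a modulatory subunit of voltage-gated potassium channels, was the control-only member of these 8. It was also the single control-only promoter among all 84 N-Myc-binding promoters of 2p with a control peak. NTSR2 (11810329), a neurotensin receptor gene, was in neither list. KCNS3 lies 1.98 Mb from MYCN on the centromere side, with SMC6, listed in both, between them.

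The 11 non-binding promoters around MYCN were divided more evenly. A peak was listed in both libraries for DDX1 (15731745), an RNA helicase gene that lies next to MYCN, and for TRIB2 (12856998), a pseudokinase gene. NOL10 (10830113), a nucleolar protein gene, ROCK2 (11484711), a kinase gene of cytoskeletal contraction, and PQLC3 (11295540) had the same call. Control-only promoters were KCNF1 (11052063), another modulatory potassium channel subunit, VSNL1 (17721807), a neuronal calcium sensor, and ATP6V1C2 (10861775), a proton pump subunit. HPCAL1 (10508804), a further calcium sensor, LPIN1 (11817705), a phosphatidate phosphatase gene, and MSGN1 (17997786), a mesoderm regulator, were in neither list.

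Of the 15 promoters around MYCN with a control peak, 4 were control-only, which is 26.7% (exact 95% interval over promoters 7.79 to 55.1%). The interval includes the 11.6% over both tables. An excess near MYCN was not tested, because the siRNAs have no replicate libraries. These intervals, here and below, are counting intervals over promoters and hold no error of library preparation or of replicate cultures. Just outside the stretch, ADAM17 (9695917) and TTC32 (20101744), both N-Myc-binding, had a peak in both libraries. At the arm's inner edge, RPIA (88991176, peak in both) is the last promoter below 92 Mb and MAL (95691400, in neither list) the next above.

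**Figure D1:**
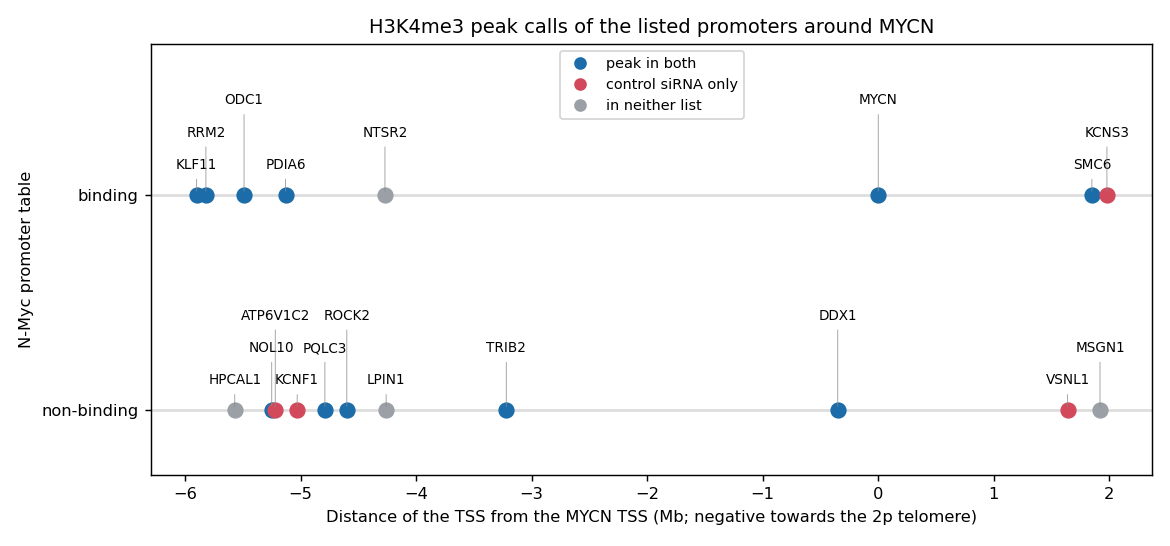
Peak calls of the 19 listed promoters between 10 and 20 Mb of chromosome 2, placed by the distance of their TSS from that of MYCN (horizontal axis, Mb) and by promoter table (vertical axis). Points are promoters coloured by call: 11 have a peak in both libraries, 4 with control siRNA alone (KCNS3, KCNF1, VSNL1 and ATP6V1C2) and 4 are in neither list.

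A further 17 names of the gene list for this stretch and its neighbours have no row in either table and are known by their call alone. That list also holds promoters beyond the stretch, such as TTC32 and PUM2. Names without a row have no listed position, so some of them may lie outside the stretch. In both lists were 7, MYCNOS, the antisense gene of MYCN, NBAS, GEN1, E2F6, CYS1, GRHL1 and TAF1B. Control-only were 3, FAM49A, FAM84A and MATN3. The control-only share of 11.6% covers promoters with a row, so it is no background for these chosen names. Their counts are therefore not read as a result about the surroundings of MYCN. In neither list were 7, MYCNUT, GACAT3, RAD51AP2, RDH14, NT5C1B, OSR1 and GREB1.

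Across the whole arm, most promoters kept a call in both libraries. The control library had a peak at 200 of 257 promoters (77.8%, interval 72.2 to 82.7%), and the WDR5 siRNA library at 180 (70.0%, interval 64.0 to 75.6%). Both libraries listed 179, control siRNA alone 21, WDR5 siRNA alone 1, and 56 were in neither list. The 21 control-only promoters are 10.5% of those with a control peak (interval 6.62 to 15.6%). Outside 2p the share was 11.6% (764 of 6562). The single WDR5-siRNA-only promoter was MYT1L (2335045), which encodes a neuronal zinc finger factor. The background is 1.35% of the promoters without a control peak.

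N-Myc-binding and non-binding promoters of 2p differed in their calls. Of 84 N-Myc-binding promoters with a control peak, 1 was control-only (1.19%, interval 0.0301 to 6.46%), against 4.18% over all N-Myc-binding promoters. Among 116 non-binding promoters of the arm this call was made 20 times (17.2%, interval 10.9 to 25.4%), and the share over the whole non-binding table was 17.9%. The difference on 2p was 16.1 percentage points (Newcombe 95% interval 8.23 to 24.0). At the shares seen outside 2p, table by table, 24.3 control-only promoters would be counted on 2p, and 21 were. The arm's share thus lies near the background in either table. Since each siRNA has 1 library, these shares carry no p-value.

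A larger part of the non-binding promoters of 2p carried a control peak than outside it. The share was 116 of 168 (69.0%, interval 61.5 to 75.9%), against 3559 of 6163 elsewhere (57.7%, interval 56.5 to 59.0%). In the WDR5 siRNA library it was 97 of 168 (57.7%), against 2956 of 6163 elsewhere (48%). These intervals count promoters of 1 library and do not test a difference. On 2q, the long arm, the control library's share was 173 of 297 (58.2%, interval 52.4 to 63.9%). This is close to the share outside 2p, though its interval overlaps that of 2p. Among N-Myc-binding promoters the shares were 94.4% on 2p and 94.9% outside it. The arm was 34.6% N-Myc-binding (interval 28.8 to 40.8%), against 33.9% outside it.

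**Figure D2:**
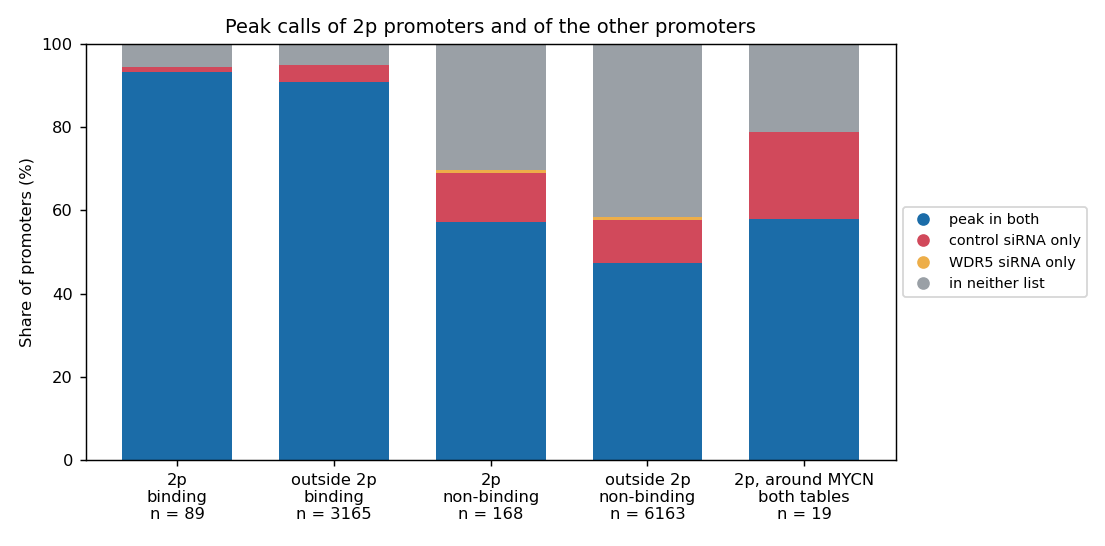
Share of promoters (vertical axis, %) in each call class, for 2p and for all other promoters of each table, and for the 19 promoters around MYCN. Each bar adds to all promoters of its set. The control-only part is small for N-Myc-binding promoters on 2p, where it is 1 of 89 promoters, and larger for non-binding ones, with 20 of 168.

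By function, lists of cell growth genes are given against all promoters, of which 179 of 257 on 2p, 5977 of 9585 over both tables and 2958 of 3254 N-Myc-binding ones had a peak in both libraries. All 11 listed translation and ribosome genes had such calls, for example the ribosomal protein genes RPS7 and RPS27A, the initiation factor subunit EIF2B4 and the 40S assembly factor PNO1. All 12 genes listed under DNA replication, repair and mitosis did as well. Among them were RRM2, the mismatch repair gene MSH6, the Fanconi anaemia ligase FANCL, and CENPO of the centromere. That list is broad and also holds CCT4, a chaperonin subunit, and CDC42EP3, an effector of the CDC42 GTPase. Of 13 chromatin and transcription genes, 11 had a peak in both libraries, such as ASXL2, a Polycomb-associated gene, GTF3C2, a subunit of an RNA polymerase III factor, and the nuclear exporter XPO1. The other members, the RNA-binding protein gene PUM2 and the nuclear receptor co-activator gene NCOA1, were in neither list although both are N-Myc-binding promoters. Of the 11 ribosome members, 6 are N-Myc-binding promoters, as are 10 of the 12 replication members and 9 of the 13 chromatin members. The part of N-Myc binding in these counts was not tested.

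Metabolic and trafficking genes had peaks in both libraries at shares nearer to the 179 of 257 promoters of the whole arm. Of 22 metabolic enzymes, 18 were in both, including CAD, which starts pyrimidine synthesis, MTHFD2 of mitochondrial folate metabolism and MAT2A, which makes S-adenosylmethionine, the methyl donor. GALM, which converts galactose anomers, was control-only, and 3 were in neither list, LPIN1 and XDH among them. Of 23 proteostasis, trafficking and mitochondrial genes, 18 were in both, such as the chaperonin subunits CCT4 and CCT7. ATP6V1C2 and DCTN1, the large dynactin subunit, were control-only, and SRD5A2, ATP6V1E2 and VAMP8 were in neither list.

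Neural regulators and neuronal membrane genes held 8 of the 21 control-only promoters of 2p. Of 15 neuroblastoma genes and neural transcription regulators, 9 had a peak in both libraries, among them MYCN, ALK, the receptor kinase mutated in neuroblastoma, EPAS1, a hypoxia factor, and OTX1. SOX11 (5832799), SIX2 (45236542), EMX1 (73144604) and EGR4 (73520829), all transcription factor genes, were control-only, so the share was 4 of 13 with a control peak (30.8%). LBX2 was in neither list. Of 25 neuronal membrane, channel and synapse genes, 16 were in both, including ADCY3, an adenylyl cyclase gene, and DPYSL5, and control-only calls made up 4 of the 20 control peaks (20%). These were KCNF1, KCNS3 and VSNL1, all around MYCN, and SNTG2 (946554), a syntrophin. The background is 11.6%, and 13 of the 15 regulators and 21 of the 25 membrane genes are non-binding promoters, for which it is 17.9%. A further 7 regulator names and 5 membrane names had no row and are left out of these shares. Of them, 6 and 3 were in both lists by name, and 0 in either group were control-only. SIX3, a neighbour of SIX2 that lies 67505 bp away, had a peak in both libraries.

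The other control-only promoters of 2p lay in no list of neural genes. Besides ATP6V1C2, GALM and DCTN1, named above, these were C2orf70, IFT172 and FNDC4 near 27 Mb. Others were CRIM1, CYP1B1 and TMEM178A between 30 and 40 Mb, VRK2, and ANKRD53, DYSF and RTKN between 70 and 80 Mb. IFT172, a subunit of intraflagellar transport, and FNDC4 lie 5555 bp apart.

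Of 21 markers of other tissues, 17 were in neither library. All 21 are non-binding promoters, of which 30.4% on 2p and 41.4% in all were in neither list. Examples are APOB and FABP1 of liver and gut, CD8A and CD8B of T cells, the gastric genes GKN1 and GKN2, and the gonadotropin receptor genes LHCGR and FSHR. The 4 with a peak in both libraries were LTBP1, EFEMP1, ANXA4 and TGFA. ALK, by contrast, was listed in both. Of the genes of interest without a row in the tables, ID2, DPY30, which encodes a partner of WDR5, and DNMT3A were listed by name in both libraries.

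Each promoter table is named as an H3K4me3 quantification but holds no values, and its header does not explain the order of its rows. On 2p, row positions differed between the telomere and centromere sides of the arm. Row positions are given as a percent of the table's length, with 0 at the top. Among N-Myc-binding promoters with a peak in both libraries, the median row was at 20.8% for TSSs below 10 Mb, 21.1% from 10 to 20 Mb, 30.6% from 20 to 30 Mb, 16.7% from 30 to 40 Mb and 31.1% from 40 to 50 Mb. Toward the centromere it was 66.3%, 61.0%, 61.1% and 67.6% in the next 4 windows of 10 Mb. Non-binding promoters gave 23.0%, 1.42%, 10.3%, 8.47% and 10.3% in the first 5 windows, and 45.6%, 31.1%, 30.8% and 35.3% in the last 4. The windows held 3 to 20 promoters each. In both tables, the 5 windows below 50 Mb had earlier median rows than the 4 above it.

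A boundary at 50 Mb, chosen after these values were seen, separates the arm into a distal part with 135 promoters and a proximal part with 122. Distal N-Myc-binding promoters with a peak in both libraries had a median row position of 29.3% (44 promoters, 0.0307 to 91.1%), and proximal ones 62.7% (39 promoters, 23.7 to 92.2%). For non-binding promoters the medians were 9.35% (46 promoters, 0.237 to 44.9%) and 32.3% (50 promoters, 3.49 to 52.0%). The ranges overlap in both tables.

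Each table's own median row over all promoters with a peak in both libraries is at 45.6% and 23.9%. Of distal N-Myc-binding promoters, 33 of 44 lay before it (75.0%, interval 59.7 to 86.8%), against 10 of 39 proximal ones (25.6%, interval 13.0 to 42.1%). Of distal non-binding promoters, 36 of 46 did (78.3%, interval 63.6 to 89.1%), against 14 of 50 proximal ones (28.0%, interval 16.2 to 42.5%). The differences were 49.4 percentage points (Newcombe interval 28.2 to 64.6) and 50.3 points (interval 30.8 to 64.4). The boundary was placed where these same rows change, so a difference was built in. The intervals therefore only describe its size and do not test it. Spearman's rho between TSS position and row was 0.49 over 83 N-Myc-binding and 0.48 over 96 non-binding promoters, all from the same 2 libraries and neighbouring in the genome. The position at which a promoter stands in the table was not a criterion for membership of the arm, but it set the boundary.

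**Figure D3:**
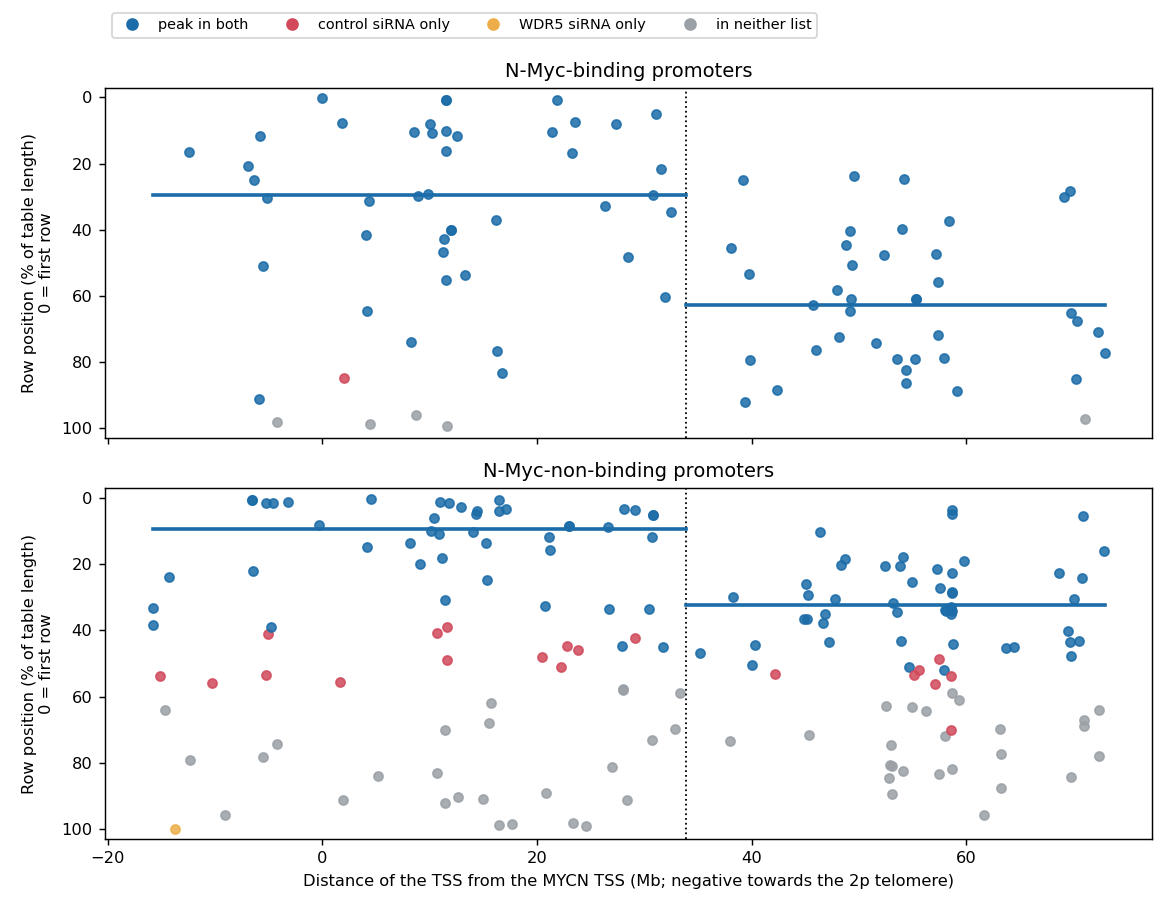
Row position in the promoter table (vertical axis, percent of table length, first row at the top) against distance of the TSS from that of MYCN (horizontal axis, Mb), for 89 N-Myc-binding (upper) and 168 non-binding promoters (lower), coloured by call. The dotted line is the boundary at 50 Mb and the horizontal lines are the medians of promoters with a peak in both libraries on each side, 29.3% and 62.7% above and 9.35% and 32.3% below.

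Single genes at the top of either table lay in the distal part. The first 3 N-Myc-binding rows from 2p were MYCN (row 1), SNX17, an endosomal sorting gene (row 20), and CDC42EP3, an effector of the CDC42 GTPase (row 21). The first 3 non-binding ones were RHOB, a small GTPase gene (row 15), BIRC6, an apoptosis inhibitor (row 25), and ITGB1BP1, an integrin regulator (row 28). All 6 lie in the distal part, between 9563643 (ITGB1BP1) and 37899342 (CDC42EP3). NOL10 (row 83), ROCK2 (row 90) and TRIB2 (row 66), around MYCN, also lie among the first 100 of 6331 non-binding rows, and DDX1 is at row 506. ALK is at row 643, EPAS1 at row 2128 and SOX11 at row 3534 of the same table. In the N-Myc-binding table RRM2 is at row 378, ODC1 at row 1662 and MSH6 at row 1964. KLF11, at row 2966, is a late row of the distal part.

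At the other end, the last 3 N-Myc-binding rows from 2p were NTSR2 (row 3195), PUM2 (row 3219) and KRTCAP3 (row 3233), all in neither list. The last 3 non-binding ones were NLRC4, an inflammasome gene (row 6262), SLC8A1, a sodium-calcium exchanger (row 6274), both in neither list, and MYT1L (row 6329). The calls of the non-binding promoters of 2p lay in overlapping ranges of rows. Those with a peak in both libraries reached down to 52.0%, control-only ones lay between 38.9 and 70.1% (median 51.5%), and unlisted ones began at 57.8%. Of the 20 control-only promoters, 10 stood before the last one with a peak in both libraries. Outside 2p the ranges were wider, from 0.0158 to 100%, 24.2 to 99.8% and 40.6 to 99.9%. They cover more promoters, however (2923, 636 and 2571, against 96, 20 and 51), and a range widens with their number. The medians were close, at 22.6, 51.5 and 78.2% on 2p and 23.9, 51.5 and 78.4% outside it.

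The same measure differs between stretches elsewhere in the genome too. Over 128 windows of 20 Mb with at least 8 N-Myc-binding promoters with a peak in both libraries, the median row ranged from 1.87% to 78.8%. The first 20 Mb of chromosome 2 stood in place 17 from the earliest (20.8%, 9 promoters), and 60 to 80 Mb in place 102 (61.1%, 26 promoters). Among 148 such windows of non-binding promoters they held places 7 (7.99%) and 125 (31.1%). On 2q, the N-Myc-binding medians likewise went from 73.6% at 160 to 180 Mb (19 promoters) to 1.87% beyond 240 Mb (8 promoters). A difference between stretches is thus not particular to 2p.

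Promoters that share a start region had the same call and nearly the same row. Of 10 neighbouring pairs with TSSs within 1 kb, all 10 had the same call, 9 with a peak in both libraries and 1, ABCG5 and ABCG8, in neither list. Over all promoters the call was the same in 291 of 291 such pairs. DHX57 and MORN2, 82 bp apart, hold rows 536 and 535, and RBKS and BRE, 259 bp apart, hold rows 1304 and 1302. ITGB1BP1 and CPSF3, 23 bp apart, hold rows 28 and 31. The median row difference was 0.154% of the table length over these 9 pairs (up to 5.09%). It was 16.2% over 25 neighbouring pairs that lie over 1 and up to 100 kb apart in the same table, with a peak in both libraries. Over all promoters these medians were 0.142% and 16.4%. Pairs within 1 kb may be covered by 1 peak and are not separate observations.

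In sequence, promoters of 2p with a peak held more CG dinucleotides than unlisted ones, by the medians. A RefSeq window was found for 227 of the 257 promoters, and for 212 of them the spacing to a neighbouring start was the same on both builds within 300 bases. That allowance is as long as a window, so a matched window need not cover the listed TSS. The median CG count per 300 bases was 29 for promoters with a peak in both libraries (160 windows, 6 to 55), 29 for control-only ones (17 windows, 5 to 48) and 5 for unlisted ones (49 windows, 0 to 39). At least 15 CG dinucleotides were present in 148 of 160, 13 of 17 and 14 of 49 windows. Over all promoters with a peak in both libraries the median was also 29, and 92.3% had at least 15, against 92.5% on 2p. For control-only and unlisted promoters over all promoters, windows were found for under 80% (75 and 77.2%), so these values are incomplete. In the windows found, the medians were 26 and 5, and 83.2 and 23.9% had at least 15. The contrast between calls is thus not particular to 2p. DTNB, a dystrobrevin gene, had the most, with 55, and KCNS3 had 48. RPS27A, an N-Myc-binding promoter with a peak in both libraries, had 6. MYT1L had 7 and DCTN1, control-only, had 5. By this count, control-only promoters had the same median as those with a peak in both libraries, and the ranges of all 3 classes overlap.

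**Figure D4:**
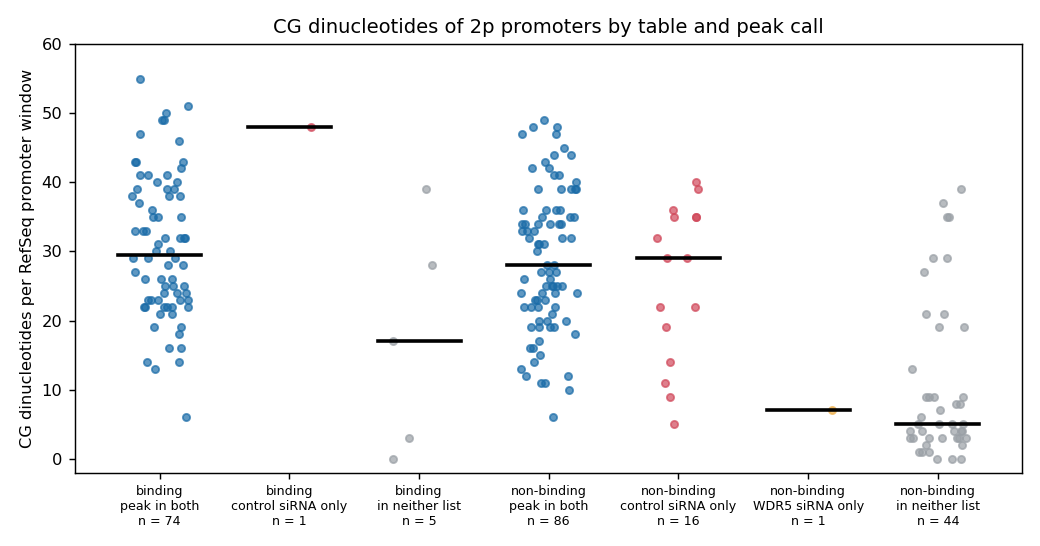
CG dinucleotides in the RefSeq promoter window (vertical axis, count per 300 bases) for 227 promoters of 2p, by promoter table and call. Points are promoters, spread sideways for legibility, and bars are medians. Promoters with a peak in both libraries have medians of 29.5 (binding) and 28 (non-binding), and unlisted non-binding ones a median of 5.

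CG content also differed along the arm. Among promoters with a peak in both libraries, the median CG count was 33 in the distal and 27.5 in the proximal part for N-Myc-binding promoters, and 33 and 25 for non-binding ones. Spearman's rho between CG count and row was -0.18 over 74 N-Myc-binding and -0.17 over 86 non-binding promoters. The part of CG content in the row positions was not tested.

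The E-box CACGTG, which reads the same on both strands, occurred in 8 of the 227 windows of 2p (3.52%, interval 1.53 to 6.83%). Over all promoters of both tables with a window it occurred in 701 of 7684 (9.12%, interval 8.49 to 9.79%), and over all 35116 RefSeq promoters in 7.26%. Of 80 N-Myc-binding windows of 2p, 5 held it (6.25%, interval 2.06 to 14%), against 412 of 2712 N-Myc-binding windows in all (15.2%, interval 13.9 to 16.6%). The 5 are KLF11, PUM2, GTF3C2, EML4 and PNO1, and the 3 non-binding promoters with the motif are ANXA4, ASPRV1 and DCTN1. The KLF11 window counts as matched, although by the difference between builds it lies downstream of its listed TSS. For PUM2 and ASPRV1 the RefSeq start did not match the listed TSS by spacing. Without such windows the 2p share was 2.83% (6 of 212) and that of all such promoters 9.28%. Other E-box forms and sequence beyond 250 bases before the start were not searched.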

How the data were processed

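BE(2)-C cells with a control siRNA or WDR5 siRNA-1 were compared by 1 H3K4me3 library each, which leaves no replicate for a test, and p-values are not printed. The authors deposited gene name lists per library and a pair of promoter tables that give gene names with intervals of 1 bp at the TSS. None of these columns holds a measured value. Per the submitters' processing notes the build was hg19 and the tools BWA 0.7.12 and bedtools, with no role stated. No source used here gives the peak caller, its threshold or how N-Myc binding was decided.

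TSSs are 1-based, from the end of each interval. Promoters were joined to the lists by exact gene name, so a peak at another TSS of a gene can count for the listed one. Calls were recovered without error on simulated lists made from the same gene names. This checks the reading and joining steps alone, and not errors of naming or of other TSSs. Shares carry exact (Clopper-Pearson) 95% intervals and differences Newcombe intervals, both over promoters. RefSeq windows (GRCh38.p14) were matched by symbol. Where a gene had several starts, spacing to each of the 7 nearest single-start neighbours was compared between builds. The start with the smallest difference to any 1 of them was used. Agreement with 1 neighbour within 300 bases counted as matched. The promoters and gene lists were chosen with earlier results of these data known, and lists hold names chosen from general knowledge. Named genes are all promoters from 10 to 20 Mb, N-Myc-binding control-only and WDR5-siRNA-only ones, the first and last 3 rows of each table, 10 genes of interest and list members, of which some are not reported here. The remaining control-only promoters, the close pairs and the genes named for their CG count or motif were named after their values were seen. Alternatives changed the denominator, the name join, the windows and the names kept. Python 3.11.15, scipy 1.17.1, statsmodels 0.14.6 and matplotlib 3.10.9 were used.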

Additional observations from a re-analysis of the deposited data

How the results depend on the processing

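The control-only share of 2p promoters (8.17 to 11.5%), the difference between promoter tables (10.8 to 17.9 percentage points) and the shares with a peak stayed within their intervals under the alternatives run for each. Across the 3, these were all promoters as the denominator, names with a single row, RefSeq synonyms, fewer name types, isolated TSSs, removal of 10 to 20 Mb and, for the first, a boundary at 87 Mb. These alternatives keep most of the same promoters, so values within the intervals are no separate support. With all promoters as the denominator, the share is also a different quantity. Wider or narrower windows around MYCN gave 17.2 and 25%. The share of neighbouring pairs with the same call was 77.8% within 10 kb, 100% within 1 kb and 61.2% within 100 kb, against 82.2, 100 and 62.5% over all promoters. The distal-proximal row differences, examined with alternatives chosen after the data were seen, ranged from 41.0 to 54.5 points (N-Myc-binding) and 36.5 to 52.9 points (non-binding). The motif window was not varied. No paired analysis was possible because each group holds 1 library, and for that reason no replicate could be left out. A missing name is a missing call at unknown depth, and a name in both lists can still differ in level.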

Other observations

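Along 2p, the calls formed 109 runs of consecutive promoters with the same call, of which 81 (74.3%) held 1 or 2 promoters, against 73.8% of 4195 runs over all chromosomes. The longest, of 20 consecutive promoters with a peak in both libraries, ran from XPO1 (61765418) to PPP3R1 (68479651) and held MDH1, UGP2, RAB1A, ACTR2 and SPRED2 among others. It was followed by 6 promoters in neither list, from PLEK (68592322) to GKN1 (69201705), which include BMP10 and PROKR1. A stretch of 9 promoters with a peak in both libraries ran from RHOQ to FOXN2 and held MSH6. Between LRRTM4 (77749502) and REG1A (79347584), 4 promoters were in neither list, with REG3G and REG1B, genes of pancreas and gut, between them. Consecutive control-only promoters occurred in 2 pairs, IFT172 with FNDC4 and CYP1B1 with GALM. The 10 Mb windows from 60 and from 80 Mb held no control-only promoter among 29 and 17 with a control peak (upper 95% limits 11.9 and 19.5%).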
